A study of Mus musculus with 8 samples.

Results

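Gas6, the TAM receptors and the other bridging molecules and receptors of dead-cell uptake were followed here as 7 genes of the 22597 in the count table. They are the TAM ligands Gas6 and Pros1, the TAM receptors Tyro3, Axl and Mertk, the bridging molecule Mfge8 and the receptor Lrp1. They were taken by gene symbol, each matched 1 row, and 6 of the 7 passed the filter on low counts over the 8 libraries, Tyro3 being the exception. The cells were lung interstitial macrophages, the macrophages of the lung tissue outside the air spaces, sorted from female C57BL/6 mice. Donor marrow was either Lyz2Cre Tgfbr2fl/fl (Tgfbr2_KO, 4 libraries called KO 1 to KO 4) or Tgfbr2fl/fl without Cre (WT, 4 libraries called WT 1 to WT 4). Both groups thus carried the floxed alleles and they differ in Cre, which deletes the floxed part of the type II TGF-β receptor gene in cells that express Lyz2. Recipients of both groups were irradiated CD45.1/CD45.2 IMDTR mice, which carry the diphtheria toxin receptor under Cx3cr1. They were given 50 ng of diphtheria toxin 1 month after transplantation, and the macrophages were sorted 10 days later. The labels give an age of 12 to 16 weeks, whereas the treatment protocol gives 18 weeks for the recipients. Lyz2 is active in monocytes, macrophages and neutrophils, and what Cre itself did and what receptor loss did cannot be told apart. The labels do not say how animals map to libraries or how many recipient macrophages remained, and p-values therefore measure the spread between libraries.

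Efferocytosis, the uptake of dying cells, starts from phosphatidylserine that a dying cell exposes on its surface. Gas6 and Pros1 bind that lipid with a vitamin K-dependent domain and bind a TAM receptor tyrosine kinase on the phagocyte with their other end, so that they bridge prey and eater. Gas6 is a ligand of Axl, Mertk and Tyro3, whereas Pros1 acts on Tyro3 and Mertk. Mfge8 bridges the same lipid to integrins that hold the αv chain, and Lrp1 is a large endocytic receptor that takes part in the uptake of cells carrying calreticulin. In tissue macrophages Mertk is the receptor most tied to routine clearance, and Axl is known from inflamed tissue and from alveolar macrophages.

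The 8 libraries did not form a single population within each genotype. Total gene counts were 15597310 (WT 1) to 37654133 (WT 4) per library. The summed level of epithelial, endothelial and fibroblast markers was 16509 CPM (counts per 1000000 counts of the library, scaled by TMM) in KO 1 against 1107 to 1250 CPM in KO 2, KO 3 and KO 4. It was 11045 CPM in WT 1 and 9204 CPM in WT 2 against 1381 and 1394 CPM in WT 3 and WT 4. Of these markers, 14 of 18 epithelial, 18 of 19 endothelial and 20 of 20 fibroblast rows were higher in each of KO 1, WT 1 and WT 2 than in every other library. KO 1, WT 1 and WT 2 are therefore referred to as lung-rich, and KO 2 to KO 4 with WT 3 and WT 4 are the other 5. Macrophage markers summed to 8325 CPM in KO 1, against 18009 to 18627 CPM in KO 2 to KO 4 and 11702 to 16641 CPM in WT. The 12 lymphocyte markers, 6 of which passed the filter, summed to 64.6 to 86.7 CPM in KO and 45.5 to 60.9 CPM in WT, without overlap. Tgfbr2 had 424 to 576 CPM in KO and 474 to 548 CPM in WT, with a log2 fold change of -0.03 (adjusted p = 1 by edgeR). Gene-level counts do not separate the floxed part from the rest of that transcript. Lyz2, the gene named in the Cre line, had 3440 to 5611 CPM in KO and 7285 to 13193 CPM in WT, without overlap. Its log2 fold change was -1.06 (adjusted p = 0.191 by edgeR) over all 8 libraries. With library set (lung-rich or other) as a term it was -1.22 (SE 0.07, adjusted p = 1.47e-04 by edgeR), and the cause was not tested. Counts of WT 3 and WT 4 differed by 1.87 times counting noise (median chi-square over genes), those of KO 2, KO 3 and KO 4 by 2.06 to 3.07 times and those of WT 1 and WT 2 by 4.41 times. Each library was kept as 1 sample, although these ratios cannot show whether libraries came from separate animals. Where libraries share animals, the p-values below would be too small. In bulk libraries such as these, fewer cells of a type and less RNA per cell cannot be told apart.

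Each gene below was compared between genotypes with edgeR's quasi-likelihood test fitted over all tested genes, with p adjusted by the Benjamini-Hochberg method and called under 0.05. The comparison was made over all 8 libraries with genotype only, then with library set (lung-rich or other) as an added term, and then within each set. Of the 6 genes that passed the filter, 0 passed the test in either direction over all 8 libraries with genotype only, where 0.298% of 12750 genes passed (0.196% higher and 0.102% lower) and 1328 had an unadjusted p under 0.05. With library set as a term 4 of 6 passed, Gas6 and Pros1 higher and Axl and Lrp1 lower in Tgfbr2_KO, where 16.5% of all genes passed (8.59% higher and 7.89% lower). In the other 5 libraries all 6 passed, 2 higher and 4 lower, where 38.5% of genes passed (19.7% higher and 18.7% lower). In the lung-rich libraries, where Tyro3 was tested too, 2 of 7 passed, Gas6 higher and Axl lower, against 5.7% of all genes (3.61% higher and 2.08% lower). Both ligands were on the higher side and the TAM receptors Axl and Mertk on the lower side of 0 in each of these comparisons. Pros1, however, was only 0.01 (SE 0.12) above 0 in the lung-rich libraries, and Mertk passed only in the other 5. The TAM receptor Tyro3 was above 0 in the lung-rich libraries, at 0.86 (SE 0.57).

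Gas6 had the largest log2 fold change of the tested members over all 8 libraries, with the set term and in the other 5 libraries, whereas in the lung-rich libraries those of Axl and, without passing the test, Tyro3 were larger in size. It lies on chr8:13465374-13494490 of GRCm38, on the minus strand. Gas6 had 263, 380.3, 386 and 397 CPM in KO 1 to KO 4, against 178, 147, 87.6 and 92.8 CPM in WT 1 to WT 4. Every Tgfbr2_KO library was above every WT library, and within the genotypes the lung-rich KO 1 was the lowest Tgfbr2_KO library while the lung-rich WT 1 and WT 2 were the highest WT libraries. Over the 8 libraries 3 of the 6 tested genes did not overlap between genotypes (Gas6 and Pros1 above, Axl below), and neither did 6.9% of all tested genes (4.19% with Tgfbr2_KO above and 2.71% with it below).

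The Gas6 log2 fold change was 1.497 (SE 0.27, adjusted p = 0.0878 by edgeR) over all 8 libraries and 1.62 (SE 0.27, adjusted p = 0.00763 by edgeR) with library set as a term. Within the other 5 libraries Gas6 averaged 388 ± 8.43 CPM in KO 2 to KO 4 (SD, n = 3), against 90.2 CPM in WT 3 and WT 4. This is a 4.30-fold level and a log2 fold change of 2.10 (SE 0.04, adjusted p = 1.28e-18 by edgeR). Within the lung-rich libraries it was 263 CPM in KO 1 against a mean of 163 CPM in WT 1 and WT 2, a log2 fold change of 0.63 (SE 0.14, adjusted p = 0.0497 by edgeR). In that fit the lone KO 1 is assumed to vary like the WT libraries. The genotype difference was therefore smaller in the lung-rich libraries, by 1.41 on the log2 scale (SE 0.12, adjusted p = 8.2e-05 by edgeR for the interaction of genotype and library set). Macrophage markers also had lower log2 fold changes in the lung-rich libraries than in the others. The set difference was -0.60 for C1qa, -0.68 for Csf1r, -0.65 for Cd68 and -0.98 for Mrc1. The part of macrophage content in the set difference of Gas6 was not tested. With the set term the Gas6 call was lost when WT 3 and WT 4 were summed into 1 library (log2 fold change 1.395, adjusted p = 0.0507 by edgeR). The same held when WT 4 was left out (1.42, adjusted p = 0.0537 by edgeR). It was also lost when WT 3 and WT 4 were summed with KO 4 left out (1.35, adjusted p = 0.118 by edgeR). Summed markers of platelets and erythroid cells were 535 to 829 CPM in KO and 216 to 535 CPM in WT, and their part in the Gas6 difference was not tested. Tmem255b, which overlaps Gas6 on the opposite strand, had at most 0.628 CPM.

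With library set as a term Pros1 was higher as well, by much less. Pros1, on chr16:62854307-62929346 (plus strand), had 139.6, 144, 154 and 149 CPM in KO 1 to KO 4, against 136, 129, 114 and 111 CPM in WT 1 to WT 4. Every Tgfbr2_KO library was above every WT library, but KO 1 and WT 1 were separated by less than the spread within either genotype. The log2 fold change was 0.26 (SE 0.08, adjusted p = 0.291 by edgeR) over all 8 libraries and 0.29 (SE 0.07, adjusted p = 0.0265 by edgeR) with library set as a term. Its value was 0.41 (SE 0.04, adjusted p = 9.95e-08 by edgeR) in the other 5 libraries. By contrast, the lung-rich ones gave 0.01 (SE 0.12, adjusted p = 0.965 by edgeR), and the set difference of -0.33 (SE 0.08) passed (adjusted p = 0.0148 by edgeR). With the set term Pros1 no longer passed when WT 3 and WT 4 were summed (adjusted p = 0.202 by edgeR) or when any of KO 2, KO 3, KO 4, WT 3 and WT 4 was left out (adjusted p from 0.102 to 0.206 by edgeR).

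The 250 bases before the start sites of Gas6, Pros1 and Axl are shown because the levels of these 3 genes did not overlap between genotypes, with the ligands above and the receptor below. They are RefSeq sequences of GRCm38.p6 at chr8:13494536-13494785 (minus strand), chr16:62854057-62854306 (plus strand) and chr7:25788734-25788983 (minus strand). Capitals mark CAGAC or its reverse complement GTCTG, the short element that Smad proteins, the transcription factors of the TGF-β pathway, are known to bind.
Gas6: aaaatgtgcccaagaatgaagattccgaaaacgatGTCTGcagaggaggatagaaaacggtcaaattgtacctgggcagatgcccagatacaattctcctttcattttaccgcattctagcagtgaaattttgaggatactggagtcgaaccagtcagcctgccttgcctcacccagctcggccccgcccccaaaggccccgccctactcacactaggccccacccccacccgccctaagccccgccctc
Pros1: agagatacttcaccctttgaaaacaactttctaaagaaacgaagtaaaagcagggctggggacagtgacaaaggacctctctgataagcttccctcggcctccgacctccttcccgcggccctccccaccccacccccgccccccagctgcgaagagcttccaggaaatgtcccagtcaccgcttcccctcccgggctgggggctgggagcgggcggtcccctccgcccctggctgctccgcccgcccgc
Axl: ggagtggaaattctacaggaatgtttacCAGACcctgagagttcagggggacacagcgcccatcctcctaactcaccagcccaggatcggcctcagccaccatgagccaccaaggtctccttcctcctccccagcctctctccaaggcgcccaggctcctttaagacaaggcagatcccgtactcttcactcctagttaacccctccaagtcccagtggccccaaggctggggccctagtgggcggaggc
Read 5′ to 3′ and searched on both strands, the Gas6 sequence holds 1 such element, starting 215 bases before the start site, the Axl sequence holds 1, starting 222 bases before it, and the Pros1 sequence holds 0. Of 32851 RefSeq promoter windows of the same length, 42.2% hold the element, and among the 7 genes it is in the Gas6 and Axl windows only. A match of these letters is a description of the sequence and not a measured binding site.

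**Figure D1:**
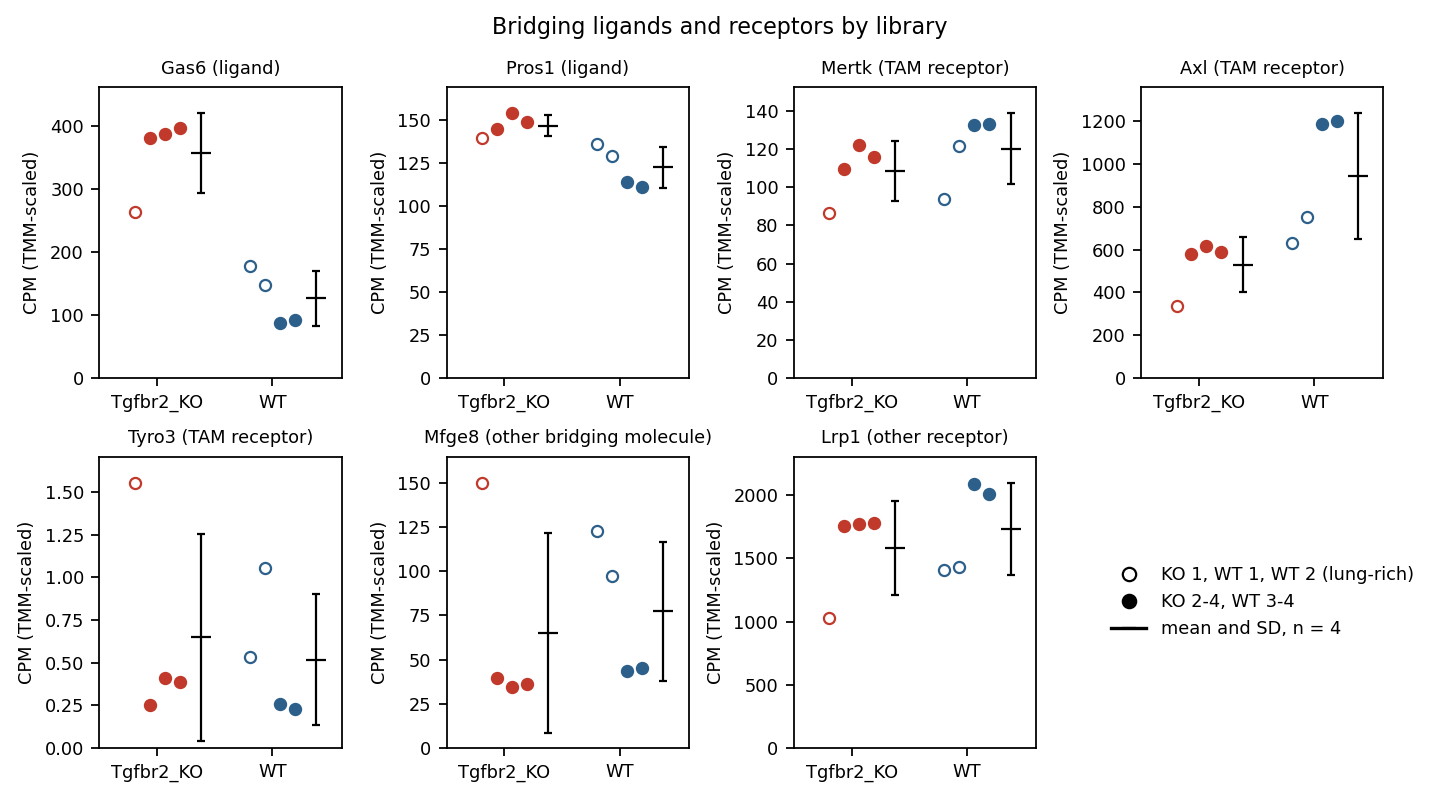
Levels of the 7 genes in each library, as TMM-scaled CPM on a linear axis from 0, with Tgfbr2_KO libraries on the left and WT libraries on the right, open circles for the lung-rich libraries KO 1, WT 1 and WT 2, and bars for the mean and SD of 4 libraries. Gas6 lies at 263 to 397 CPM in Tgfbr2_KO and 87.6 to 178 CPM in WT, Axl lies lower in every Tgfbr2_KO library, and Mfge8 separates by library set.

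Axl was the TAM receptor that differed most, in the direction opposite to its ligand. Axl, on chr7:25757273-25788705 (minus strand), had 337, 578, 615 and 588 CPM in KO 1 to KO 4, against 631, 753, 1187 and 1198 CPM in WT 1 to WT 4. Every Tgfbr2_KO library was below every WT library, and the lung-rich libraries were the lowest of each genotype. Over all 8 libraries the log2 fold change was -0.83 (SE 0.28, adjusted p = 0.338 by edgeR), and with library set as a term the value was -1.02 (SE 0.07, adjusted p = 1.76e-04 by edgeR).

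Unlike Gas6, Axl differed by nearly the same ratio in each library set. In the other 5 libraries it averaged 594 ± 19.0 CPM in KO 2 to KO 4 (SD, n = 3), against 1192 CPM in WT 3 and WT 4, a log2 fold change of -1.004 (SE 0.03, adjusted p = 2.08e-15 by edgeR). In the lung-rich libraries it was 337 CPM in KO 1 against a mean of 692 CPM in WT 1 and WT 2, a log2 fold change of -1.11 (SE 0.16, adjusted p = 0.0242 by edgeR). The difference between the sets was -0.03 (95% interval -0.28 to 0.22, adjusted p = 0.871 by edgeR). With the set term Axl passed under each of the 16 alternatives tried, with log2 fold changes from -1.06 to -0.98 and edgeR or other tools' adjusted p of at most 0.0258. Summed markers of alveolar macrophages, which are known to express Axl, were 172 to 198 CPM in KO 2 to KO 4 and 569 to 582 CPM in WT 3 and WT 4. In the lung-rich libraries, where Axl was also lower, that sum was 217 CPM in KO 1 against 155 and 179 CPM in WT 1 and WT 2. Those of classical monocytes were 2057 to 2713 CPM in KO 2 to KO 4 and 3072 to 3077 CPM in WT 3 and WT 4, and 1081 CPM in KO 1 against 1341 and 1685 CPM in WT 1 and WT 2. Both of these marker lists hold Chil3, so that their sums are not independent. The alveolar macrophage marker Siglecf had 1.03 to 2.29 CPM in KO and 1.48 to 5.15 CPM in WT, and the part of either cell type in the Axl difference was not tested. Within the lung-rich libraries the macrophage markers C1qa, Csf1r, Cd68 and Mrc1 had log2 fold changes of -0.70, -0.55, -0.59 and -0.03. In the other 5 libraries they had -0.03, 0.19, 0.12 and 1.01. The part of macrophage content in the lung-rich values of Gas6, Pros1, Axl, Mertk and Lrp1 was not tested.

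Mertk, the receptor tied to routine clearance, differed little. Mertk, on chr2:128698956-128802894 (plus strand), had 86.2, 109.6, 122 and 116 CPM in KO 1 to KO 4, against 93.8, 121, 133 and 133 CPM in WT 1 to WT 4. The genotypes overlapped over the 8 libraries, and within each library set the Tgfbr2_KO libraries were below the WT libraries, a separation shared by 59.1% of all tested genes in the other 5 libraries, and by 79.2% in the lung-rich ones. The log2 fold change was -0.15 (SE 0.15, adjusted p = 0.95 by edgeR) over all 8 libraries and -0.24 (95% interval -0.43 to -0.05, adjusted p = 0.0864 by edgeR) with library set as a term. It passed in the other 5 libraries, at -0.20 (SE 0.04, adjusted p = 0.00131 by edgeR), and it was -0.39 (SE 0.17, adjusted p = 0.231 by edgeR) in the lung-rich ones.

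Tyro3, the remaining TAM receptor, was close to absent from these libraries. Tyro3, on chr2:119797733-119818104 (plus strand), had 47, 6, 8 and 7 counts in KO 1 to KO 4, against 9, 24, 5 and 8 counts in WT 1 to WT 4. These are 1.55, 0.25, 0.408 and 0.385 CPM in KO 1 to KO 4 and 0.532, 1.05, 0.257 and 0.225 CPM in WT 1 to WT 4. The highest values were in the lung-rich KO 1 and WT 2. In the other 5 libraries it had 5 to 8 counts, against a floor of 3 counts that stood at 0.0844 to 0.165 CPM. Without the filter on low counts its log2 fold change was 0.34 (SE 0.76, adjusted p = 1 by edgeR) over all 8 libraries and 0.72 (SE 0.39, adjusted p = 0.302 by edgeR) with library set as a term. In the lung-rich libraries it passed the filter and had a log2 fold change of 0.86 (SE 0.57, adjusted p = 0.43 by edgeR). A genotype difference was not detectable at this depth.

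Mfge8 followed the library set rather than the genotype. Mfge8, on chr7:79133768-79149060 (minus strand), had 150.0, 39.5, 34.7 and 36.3 CPM in KO 1 to KO 4, against 123, 97.2, 43.6 and 45.3 CPM in WT 1 to WT 4. The 3 lung-rich libraries were the 3 highest, at 4.07 times the mean of the other Tgfbr2_KO libraries in KO 1 and 2.47 times the mean of the other WT libraries in WT 1 and WT 2. The log2 fold change was -0.24 (SE 0.61, adjusted p = 1 by edgeR) over all 8 libraries and 0.00 (95% interval -0.34 to 0.35, adjusted p = 0.99 by edgeR) with library set as a term. Its value was -0.27 (SE 0.06, adjusted p = 0.00216 by edgeR) in the other 5 libraries. By contrast, the lung-rich ones gave 0.39 (SE 0.15, adjusted p = 0.181 by edgeR), and this set difference of 0.72 (SE 0.16) passed (adjusted p = 0.0151 by edgeR). The call in the other 5 libraries was lost without WT 4 (adjusted p = 0.0631 by edgeR), and the part of lung cells other than macrophages in the Mfge8 level was not tested.

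Lrp1 was the gene with the most counts of the 7 and slightly lower in Tgfbr2_KO once library set was a term. Lrp1, on chr10:127538161-127621148 (minus strand), had 1028, 1761, 1773 and 1782 CPM in KO 1 to KO 4, against 1409, 1435, 2088 and 2007 CPM in WT 1 to WT 4. The genotypes overlapped over the 8 libraries and did not within either library set. Such a separation was common, since 59.1% of all tested genes showed it among KO 2 to KO 4 with WT 3 and WT 4. Among KO 1, WT 1 and WT 2 the share was 79.2%. The log2 fold change was -0.13 (SE 0.23, adjusted p = 1 by edgeR) over all 8 libraries and -0.30 (SE 0.07, adjusted p = 0.0207 by edgeR) with library set as a term. Its value was -0.21 (SE 0.03, adjusted p = 3.92e-06 by edgeR) in the other 5 libraries. By contrast, the lung-rich ones gave -0.53 (SE 0.14, adjusted p = 0.0691 by edgeR), a set difference of -0.26 (SE 0.06, adjusted p = 0.0132 by edgeR). With the set term Lrp1 no longer passed when WT 3 and WT 4 were summed (adjusted p = 0.074 by edgeR) or when any of KO 2, KO 3, KO 4, WT 3 and WT 4 was left out (adjusted p from 0.0656 to 0.0873 by edgeR).

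**Figure D2:**
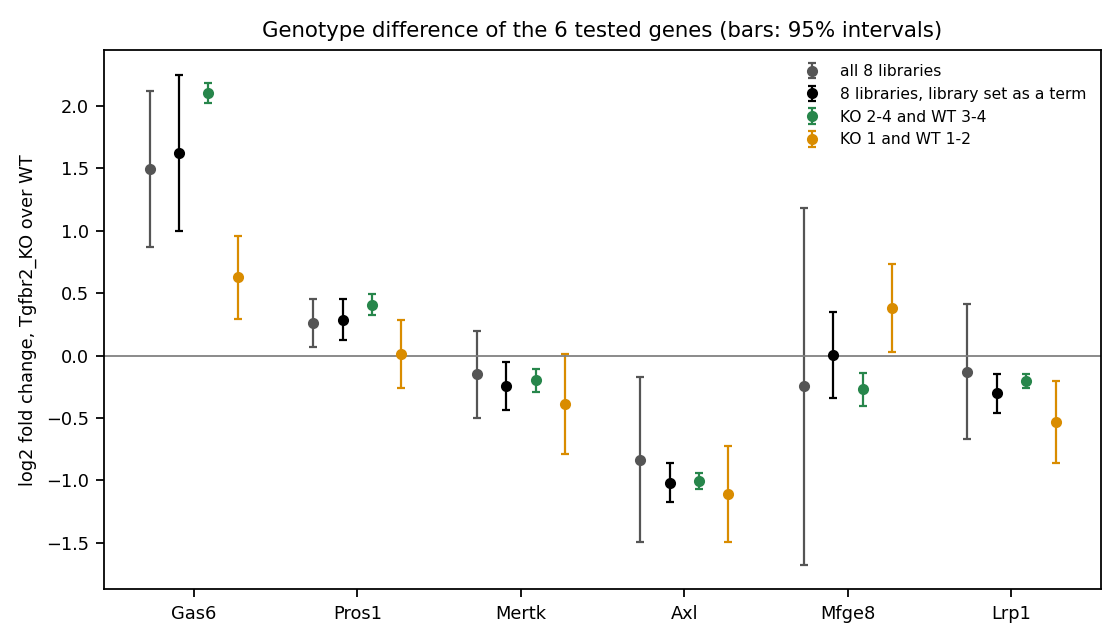
Log2 fold change of Tgfbr2_KO over WT for the 6 genes that passed the filter over the 8 libraries, with 95% intervals from edgeR, over all 8 libraries, with library set as a term, in the other 5 libraries and in KO 1 with WT 1 and WT 2. Gas6 is above 0 in each (0.63 to 2.10), Axl is below 0 in each (-1.11 to -0.83), and Mfge8 lies on either side of 0.

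Over all tested genes, the genotype difference differed between the library sets for 18.9% by the interaction test, and for Gas6, Pros1, Mfge8 and Lrp1 among the 6. Gas6 and the marker sum ran in opposite directions in the 2 genotypes, since the lung-rich library had the lowest Gas6 level of Tgfbr2_KO and the lung-rich libraries had the highest Gas6 levels of WT. In KO 1 the Gas6 level was 0.677 times the mean of KO 2 to KO 4, and in WT 1 and WT 2 it was 1.80 times the mean of WT 3 and WT 4. Axl was lower in the lung-rich libraries of both genotypes, at 0.567 times the other libraries in Tgfbr2_KO and 0.58 times in WT, and Lrp1 likewise at 0.58 times in Tgfbr2_KO and 0.694 times in WT. Whether transcripts from lung cells other than macrophages changed these levels was not tested gene by gene.

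**Figure D3:**
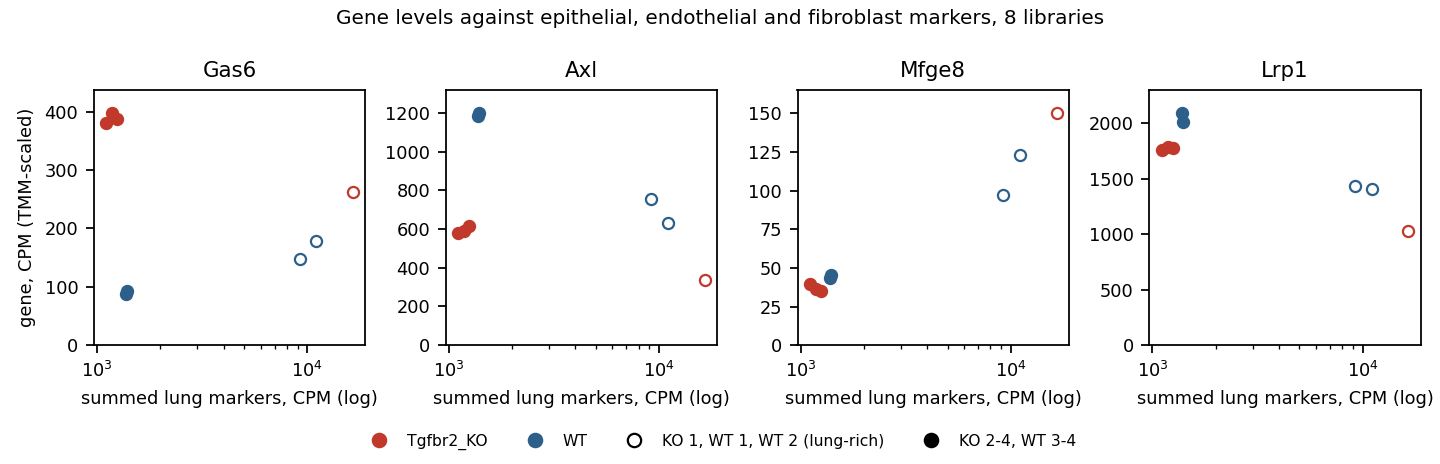
Levels of Gas6, Axl, Mfge8 and Lrp1 (TMM-scaled CPM, linear axis) against the summed epithelial, endothelial and fibroblast markers (CPM, log axis) in the 8 libraries, red for Tgfbr2_KO, blue for WT and open circles for the lung-rich libraries. The marker sum is 9204 to 16509 CPM in the lung-rich libraries and 1107 to 1394 CPM in the others, and at both ends Gas6 is higher and Axl lower in Tgfbr2_KO.

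The balance of ligand to receptor was compared within each library as the log2 ratio of counts, a measure that needs no scaling between libraries. The log2 ratio of Gas6 to Axl was -0.36, -0.60, -0.67 and -0.57 in KO 1 to KO 4, against -1.82, -2.36, -3.76 and -3.69 in WT 1 to WT 4. Every Tgfbr2_KO library was above every WT library, with a mean of -0.55 ± 0.13 in Tgfbr2_KO and -2.91 ± 0.97 in WT (SD, n = 4 each), a difference of 2.36. That difference was 1.73 within the lung-rich libraries and 3.11 within the remaining 5. These ratios are given without a test, since they combine genes already compared above.

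Against Mertk the ligands were also relatively higher in Tgfbr2_KO. The log2 ratio of Gas6 to Mertk was 1.61, 1.79, 1.67 and 1.78 in KO 1 to KO 4, against 0.93, 0.28, -0.60 and -0.52 in WT 1 to WT 4. Gas6 counts exceeded Mertk counts in all 4 Tgfbr2_KO libraries and in WT 1 and WT 2. The log2 ratio of Pros1 to Axl averaged -1.81 ± 0.36 in Tgfbr2_KO and -2.89 ± 0.61 in WT (SD, n = 4 each) without overlap. Axl is not among the receptors given above for Pros1, so that this ratio is not of a ligand to its receptor. The log2 ratio of Pros1 to Mertk averaged 0.45 ± 0.17 in Tgfbr2_KO and 0.04 ± 0.37 in WT (SD, n = 4 each) and overlapped. With Tyro3 as the receptor, ratios of either ligand overlapped between genotypes.

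**Figure D4:**
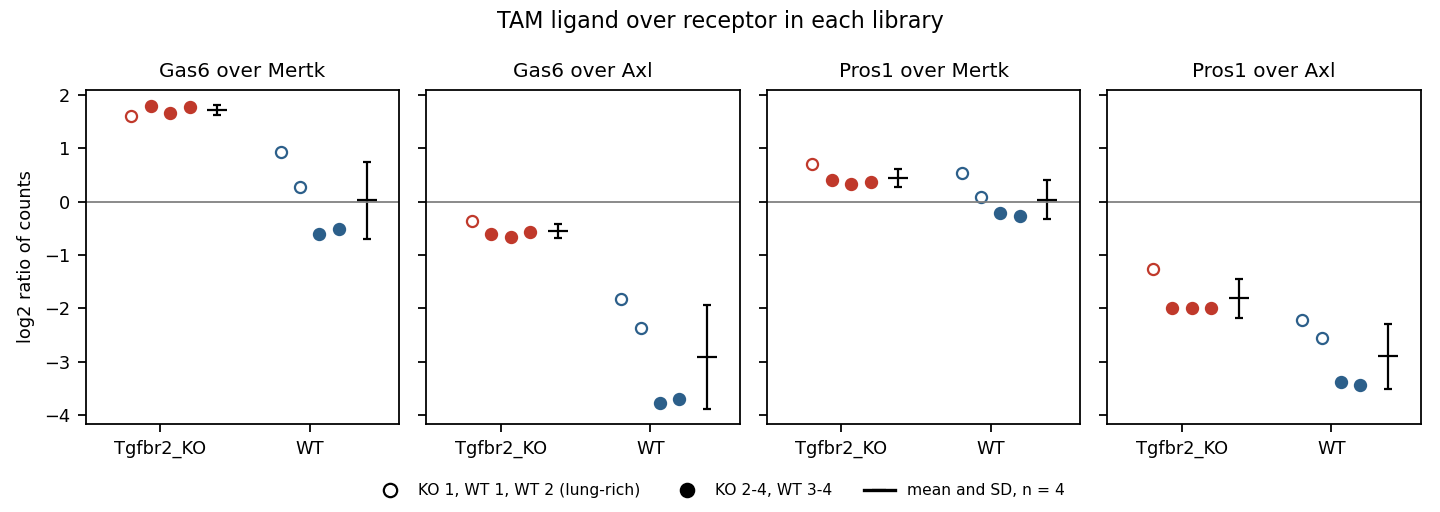
Log2 ratio of ligand counts to TAM receptor counts in each library, Tgfbr2_KO on the left and WT on the right, with open circles for the lung-rich libraries and bars for the mean and SD of 4 libraries. Gas6 over Mertk and Gas6 over Axl do not overlap between genotypes, and WT 3 and WT 4 have the lowest ratios in all 4 panels. Pros1 acts on Tyro3 and Mertk, so that Pros1 over Axl is not a ligand over its receptor.

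Levels of different genes were set side by side as CPM per kb of exon length. In Tgfbr2_KO the order was Gas6 at 139.96 ± 24.7, Axl at 105 ± 25.7, Lrp1 at 89.5 ± 21.0, Pros1 at 35.9 ± 1.47, Mertk at 25.0 ± 3.59, Mfge8 at 13.9 ± 12.1 and Tyro3 at 0.105 ± 0.098 CPM per kb (SD, n = 4). In WT it was Axl at 187 ± 58.2, Lrp1 at 97.9 ± 20.5, Gas6 at 49.6 ± 17.2, Pros1 at 29.9 ± 2.91, Mertk at 27.7 ± 4.24, Mfge8 at 16.4 ± 8.36 and Tyro3 at 0.0834 ± 0.0619 CPM per kb (SD, n = 4). Gas6 was thus first in Tgfbr2_KO and behind Axl and Lrp1 in WT. Of neighbours in this order, the ranges over libraries overlapped in Tgfbr2_KO for Gas6 (103 to 156) and Axl (66.9 to 122), for Axl and Lrp1 (58.0 to 101) and for Mertk and Mfge8. In WT they overlapped for Pros1 and Mertk and for Mertk and Mfge8. Within each Tgfbr2_KO library, however, Gas6 stood above Axl and Axl above Lrp1, in 4 of 4 libraries. Mertk stood above Mfge8 in 3 of 4 libraries of each genotype and Pros1 above Mertk in 2 of 4 WT libraries, so that the order of these pairs was not the same in every library. With the longest transcript as the length, Mfge8 ranked above Mertk in both genotypes.

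Over the 8 libraries, the tested genes outside the 7 with a mean of at least 10 CPM whose log2 levels followed Gas6 most closely were Bank1 (Pearson r = 0.997), Cbr2 (0.995), Hbegf (0.995), Plekhg5 (0.992) and Fgfr1 (0.991). Each had a positive log2 fold change with library set as a term, from 1.63 for Hbegf to 2.17 for Cbr2. The genes closest to Axl were Hvcn1 (r = 0.997), Lpcat2 (0.996) and Cd300c2 (0.996), each lower in Tgfbr2_KO with the set term, by log2 fold changes of -1.04 for Hvcn1, -1.23 for Lpcat2 and -1.04 for Cd300c2. The lymphocyte marker sum was also above WT in every Tgfbr2_KO library, as was Gas6, and its part in these values was not tested. These correlations describe 8 libraries that share genotype and library set, and carry no p. The genes closest to Gas6 and to Axl were chosen on these same libraries, so that their directions followed from the choice. Among the tested genes themselves, r was 0.97 for Gas6 and Pros1, 0.85 for Axl and Mertk and -0.88 for Mfge8 and Lrp1.

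The rest of the efferocytosis pathway was described by 8 lists with 171 genes, 162 of them tested. With genotype only, 1 gene was higher (Mmp9) and 1 lower (Itgav) in Tgfbr2_KO over all 8 libraries. With library set as a term 15 were higher and 42 lower, 105 did not pass, and the median log2 fold change was -0.07, against 0.03 over all tested genes. In the other 5 libraries 35 were higher and 64 lower of 161, where 19.7% of all tested genes were higher and 18.7% lower. In the lung-rich libraries, with KO 1 alone for Tgfbr2_KO, the median log2 fold change of the list genes was -0.14. With WT 3 and WT 4 summed into 1 library, 6 list genes were higher and 23 lower with the set term. Of all 13472 genes tested there, 318 were higher and 491 lower. With KO 4 left out as well, 2 list genes were higher and 8 lower, against 70 and 115 of all 13479 genes. As shares of the tested genes, 9.26% were higher and 25.9% lower with the set term, beside 8.59% and 7.89% of all tested genes. Lower genes outnumbered higher ones in 7 of the 8 lists, and the find-me list had 2 of each. Of the 31 list genes that passed with the set term and are named below by rank of p, 10 (Itgav, Itgb5, Havcr2, Olr1, S1pr1, Cx3cr1, Lair1, Slc2a1, Mmp9 and Lrp12) passed under all 16 alternatives. The remaining 21 did not pass with WT 3 and WT 4 summed and without KO 4 (edgeR adjusted p of 0.0602 to 0.218).

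**Figure D5:**
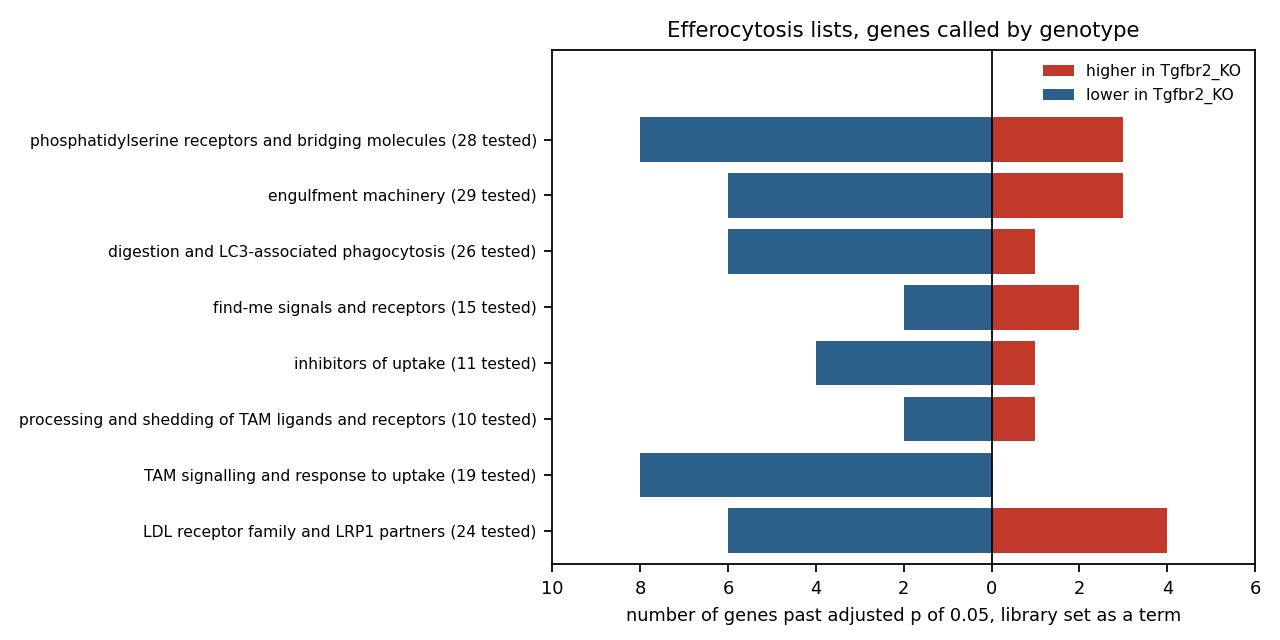
Number of genes higher (red, to the right) and lower (blue, to the left) in Tgfbr2_KO in each of 8 efferocytosis lists, at an edgeR adjusted p under 0.05 with library set as a term. The bridging and receptor list has 3 higher and 8 lower of 28, and the list of TAM signalling and response has 0 higher and 8 lower of 19. Of all tested genes, 8.59% were higher and 7.89% lower.

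Among phosphatidylserine receptors and bridging molecules, 3 of 28 tested genes were higher and 8 lower with library set as a term. These are 10.7% and 28.6%, beside 8.59% and 7.89% of all tested genes. Itgav and Itgb5, the 2 chains of an integrin that binds Mfge8, were both lower. Itgav had 93.1, 106, 99.8 and 103 CPM in KO 1 to KO 4, against 155, 146, 182 and 178 CPM in WT 1 to WT 4, without overlap. It was the one gene of this list to pass with genotype only (log2 fold change -0.72, adjusted p = 0.035 by edgeR). Itgb5 had 175, 226, 235 and 228 CPM in KO 1 to KO 4, against 297, 348, 483 and 474 CPM in WT 1 to WT 4, also without overlap. It had a log2 fold change of -0.99 (SE 0.07, adjusted p = 1.76e-04 by edgeR). Havcr2, also called TIM-3, fell by 1.13 on the log2 scale (SE 0.11, adjusted p = 8.32e-04 by edgeR), and Olr1, a scavenger receptor for oxidised lipoprotein, fell by 2.03 (SE 0.21, adjusted p = 0.00115 by edgeR). The 3 higher genes, named after their values were seen, were Timd4, which encodes the phosphatidylserine receptor TIM-4 (log2 fold change 2.21, adjusted p = 0.0285 by edgeR), Cd36 (0.78, adjusted p = 0.00166 by edgeR) and Colec12 (0.66, adjusted p = 0.0101 by edgeR). None of these 3 passed without KO 4 and with the WT 3 and WT 4 counts summed. Timd4 averaged only 6.52 ± 2.94 CPM in Tgfbr2_KO and 1.28 ± 0.54 CPM in WT (SD, n = 4 each). Colec12 averaged 32.5 ± 33.3 and 32.0 ± 25.8 CPM. In the other 5 libraries the log2 fold changes of Timd4, Cd36 and Colec12 were 3.19, 0.95 and 0.70. In the lung-rich libraries they were 0.39, 0.43 and 0.54. The part of lung cells other than macrophages in these values was not tested.

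In the engulfment machinery 3 of 29 tested genes were higher and 6 lower (10.3% and 20.7%, beside 8.59% and 7.89% of all tested genes). Dock5 and Vav1, which activate Rac GTPases, had log2 fold changes of -0.59 (SE 0.09) and -0.45 (SE 0.07), each at an edgeR adjusted p of 0.00386. Vav3 of the same family as Vav1 was higher (0.54, SE 0.08, adjusted p = 0.00411 by edgeR). Vav3 had 45.3, 66.5, 60.3 and 68.6 CPM in KO 1 to KO 4, against 35.9, 37.2, 40.8 and 40.9 CPM in WT 1 to WT 4, without overlap. Ptk2, the focal adhesion kinase, was higher with the set term (1.37, SE 0.22, adjusted p = 0.00714 by edgeR). It had 80.5 CPM in KO 1, 55.3 CPM in WT 1 and 43.5 CPM in WT 2, against 22.2 to 25.8 CPM in KO 2 to KO 4 and 6.55 to 7.03 CPM in WT 3 and WT 4. Of the digestion genes 1 of 26 was higher and 6 lower (3.85% and 23.1%, beside the same shares of all genes). The lower ones included the NADPH oxidase subunits Ncf1 (-0.60, adjusted p = 0.00311 by edgeR), Cybb (-0.48, adjusted p = 0.00386 by edgeR) and Cyba (-0.37, adjusted p = 0.00593 by edgeR). The higher one was Rubcn, which encodes the Rubicon protein of LC3-associated phagocytosis (0.42, adjusted p = 0.011 by edgeR).

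Of find-me signals and their receptors 2 of 15 were higher and 2 lower (13.3% each, beside 8.59% and 7.89% of all tested genes). Cx3cr1, the fractalkine receptor, had 214, 358, 295 and 326 CPM in KO 1 to KO 4, against 547, 449, 568 and 575 CPM in WT 1 to WT 4, without overlap. It had a log2 fold change of -0.95 (SE 0.11, adjusted p = 0.00145 by edgeR). S1pr1, a receptor for sphingosine-1-phosphate also known from endothelium, was higher with the set term (0.92, SE 0.07, adjusted p = 2.81e-04 by edgeR). Its level was 226 CPM in KO 1, 123 CPM in WT 1 and 134 CPM in WT 2, against 28.3 to 33.3 CPM in KO 2 to KO 4 and 15.3 to 16.1 CPM in WT 3 and WT 4. Cx3cl1, the ligand of Cx3cr1, was higher (0.50, adjusted p = 0.0131 by edgeR). It had 56.5 CPM in KO 1 and at most 9.33 CPM in KO 2 to KO 4, against at least 31.5 CPM in WT 1 and WT 2 and at most 7.06 CPM in WT 3 and WT 4. The part of lung cells other than macrophages in S1pr1, Cx3cl1 and Ptk2 was not tested. Entpd1, which degrades extracellular ATP, was lower (-0.35, adjusted p = 0.0348 by edgeR).

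Of inhibitors of uptake 1 of 11 was higher and 4 lower (9.09% and 36.4%, beside 8.59% and 7.89% of all tested genes). The lower ones were Lair1, an inhibitory collagen receptor (-0.89, SE 0.07, adjusted p = 3.15e-04 by edgeR), Sirpa, the receptor of the CD47 signal that protects cells from uptake (-0.37, adjusted p = 0.0127 by edgeR), Clec12a (-0.44, adjusted p = 0.0372 by edgeR) and Pilra (-0.19, adjusted p = 0.041 by edgeR). Both the receptors and the inhibitors of uptake held more lower than higher genes.

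Of genes that process TAM proteins 1 of 10 was higher and 2 lower (10% and 20%, beside 8.59% and 7.89% of all tested genes). Adam17 and Adam10, proteases that cut Axl and Mertk from the cell surface, were both lower, at -0.43 (SE 0.06, adjusted p = 0.003 by edgeR) and -0.33 (SE 0.05, adjusted p = 0.0031 by edgeR). Ggcx, the carboxylase that Gas6 and Pros1 need to bind phosphatidylserine, was higher with the set term (0.30, adjusted p = 0.035 by edgeR). It had 25.2 CPM in KO 1 and 11.8 to 13.1 CPM in KO 2 to KO 4, against 20.4 and 18.1 CPM in WT 1 and WT 2 and 10.1 and 10.7 CPM in WT 3 and WT 4. Nqo1, a quinone reductase, did not pass (adjusted p = 0.0528 by edgeR).

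In TAM signalling and the response to uptake 0 of 19 tested genes were higher and 8 lower. The lower ones are 42.1%, beside 7.89% of all tested genes. Slc2a1, the glucose transporter GLUT1, had 41.3, 54.6, 60.2 and 59.7 CPM in KO 1 to KO 4, against 72.9, 66.0, 100.3 and 99.4 CPM in WT 1 to WT 4, without overlap (log2 fold change -0.77, SE 0.05, adjusted p = 1.81e-04 by edgeR). Ifnar1, the interferon receptor chain through which TAM receptors act on cytokine signalling, was lower by a log2 fold change of -0.47 (adjusted p = 0.00189 by edgeR). Slc16a1, a lactate transporter (-0.46, adjusted p = 0.0156 by edgeR), was lower too, and so was Arg1 (-1.41, adjusted p = 0.0129 by edgeR) at only 0.364 to 4.95 CPM.

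Of the LDL receptor family and partners of LRP1, 4 of 24 tested genes were higher and 6 lower. These are 16.7% and 25%, beside 8.59% and 7.89% of all tested genes. Mmp9, a matrix protease that LRP1 clears, had 591, 1195, 1186 and 1204 CPM in KO 1 to KO 4, against 99.7, 112, 74.3 and 76.1 CPM in WT 1 to WT 4. It passed with genotype only (log2 fold change 3.53, adjusted p = 0.0197 by edgeR) and with the set term (3.48, SE 0.30, adjusted p = 5.73e-04 by edgeR). Apoe, a lipoprotein ligand of LRP1, had 2464, 5232, 6137 and 5735 CPM in KO 1 to KO 4, against 4135, 5171, 9183 and 9476 CPM in WT 1 to WT 4, overlapping over the 8 libraries. It had a log2 fold change of -0.78 (SE 0.10, adjusted p = 0.00216 by edgeR) with the set term. Lrpap1, the chaperone of LRP1, was lower (-0.31, adjusted p = 0.00905 by edgeR), as was Lrp12 (-0.59, adjusted p = 7.27e-04 by edgeR).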

How the data were processed

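Polyadenylated RNA of sorted lung macrophages was extracted with TRIzol and made into libraries with a TruSeq Stranded mRNA kit for a NovaSeq, per the labels' protocols. The authors deposited 1 merged salmon table of estimated counts by gene, per the file headers. The build is GRCm38, and DESeq2 1.40.1 was used, per the submitters' processing notes. For salmon, the version, strand setting and annotation are not stated in the labels or file headers.

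Counts were rounded to whole numbers, filtered with filterByExpr (minimum count 10, minimum total 15), scaled by TMM and tested in R 4.3.3 with edgeR 4.0.16 (robust quasi-likelihood F-test), with DESeq2 1.42.0 and limma 3.58.1 as alternatives. 22580 of 22597 gene identifiers were in GENCODE M21, which gave gene positions and exon lengths. CPM are TMM-scaled, with SD for means and SE for fold changes. Floors of 3 counts cover counting error only.

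The genes, lists, library sets and tests were chosen with earlier results of these data known. The library sets come from the marker levels, not from the labels. Of each list the 4 genes with the smallest p with the library set as a term were named, and others are said to be named after their values were seen. Replicate numbers 1 to 4 occur in both groups, and the fit with them as a block was an alternative, as were other scalings, filters, left-out libraries and WT 3 and WT 4 summed. The fits were tested on simulated data with known changes. Apart from those changes the simulated libraries shared a common mean profile, so they cannot show how the fits handle the lung-rich libraries.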

Additional observations from a re-analysis of the deposited data

Results flagged for a closer look

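KO 1 stood apart from the other Tgfbr2_KO libraries for 5 of the 7 genes, by a gap to the nearest library of 0.868 to 0.972 of the group's range. It was the lowest Tgfbr2_KO library for Gas6 (263 CPM), Axl (337 CPM) and Lrp1 (1030 CPM), and the highest for Tyro3 (1.55 CPM) and Mfge8 (150 CPM). Of 14 groups tested in this way (each gene in each genotype) 5 stood apart, and chance flags about 1 in 20 groups. KO 1 also stood apart for 16 of the 32 pathway genes named from the lists, and no other library did for any of them. These 5 values are not independent, since they come from 1 library, which is the Tgfbr2_KO library with the marker sum of 16509 CPM. The genotype contrast for Gas6 and Axl kept its direction without KO 1, as the values of the other 5 libraries show.

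The genotype difference itself differed between the lung-rich and the other libraries by edgeR's interaction test for 4 of the 6 tested genes. Written as the log2 fold change in the lung-rich libraries minus that in the others, it was -1.41 for Gas6 (edgeR adjusted p = 8.2e-05), -0.328 for Pros1 (edgeR adjusted p = 0.0148), -0.259 for Lrp1 (edgeR adjusted p = 0.0132) and 0.722 for Mfge8 (edgeR adjusted p = 0.0151). The lung-rich side of each rests on a single Tgfbr2_KO library, KO 1. Macrophage markers summed to 8325 CPM in KO 1, against 18009 to 18627 CPM in KO 2 to KO 4. The part of macrophage content in these set differences was not tested.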

How the results depend on the processing

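With genotype only, the count of the 7 genes called higher was 2 with DESeq2, 2 with the library set as a term, 2 in the other 5 libraries, 1 in the lung-rich libraries, 2 with the lung marker sum as a covariate (chosen after seeing the data) and 0 to 1 with a library left out, and the count called lower was 2, 4, 1 and 2 under the library set, the other 5, the lung-rich libraries and the covariate. Over the 8 lists, calls higher and lower were 2 and 3 with totals only, 6 and 7 with DESeq2, 15 and 42 with the library set, 35 and 64 with KO 2 to KO 4 and WT 3 to WT 4 alone, 10 and 22 with the lung-rich libraries alone, 12 and 39 with the covariate, 0 and 0 with WT 3 and WT 4 summed, and 0 to 8 each way with a library left out. No filter gave 0 lower. Calls over all genes moved with the setting as well, from 25 higher and 13 lower with genotype only. They were 53 and 28 with totals only, 347 and 180 with DESeq2 and 1095 and 1006 with the library set. In the other 5 libraries they were 2493 and 2363, with the covariate 986 and 1044, and without KO 1 619 and 241. With genotype only, calls over all genes were 0 when any library but KO 1 was left out, with 807 to 1451 at an unadjusted p under 0.05.

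With the library set as a term, the 7 genes gave 0 higher and 1 lower with WT 3 and WT 4 summed, with or without KO 4 (leaving it out was chosen after seeing the data), and 0 to 2 higher and 1 to 3 lower with a library left out. The lists gave 25 higher with limma-voom, 6 higher and 23 lower with WT 3 and WT 4 summed, 2 and 8 with KO 4 left out too, and 6 to 28 higher and 21 to 54 lower with a library left out. Over all genes the set term gave 1095 higher and 1006 lower. Those counts were 1678 higher with limma-voom, 318 and 491 with WT 3 and WT 4 summed, and 70 and 115 without KO 4 too. With a library left out they were 307 to 2047 higher and 451 to 1946 lower. Of the alternatives with the set term, Gas6 passed in 13 of 16, Pros1 and Lrp1 in 9 of 16 each, and Axl in 16 of 16. The direction turned for Mfge8, at 0.00402 with the library set and 0.39 in the lung-rich libraries against -0.24 with genotype only, and at -0.0108, -0.0029 and -0.0184 under RLE scaling, no filter and DESeq2 with the set term. With a library left out, Mfge8 ran from -1.07 to 0.0709 with genotype only and from -0.27 to 0.0704 with the set term, and Lrp1 with genotype only from -0.22 to 0.0297. Tgfbr2 turned to 0.01 with the set term without KO 1. The cause was not tested. With the longest transcript as the length, levels over all libraries were 40.7 for Pros1 (32.9 with the exon union) and 30.5 for Mfge8 (15.2) CPM per kb. The fits on the lung-rich libraries were not repeated with a library left out, since 1 library a genotype would remain.

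Whether replicate numbers pair the libraries could not be told, since deviations from the group means followed library set. Those of KO 1 correlated at 0.87 and 0.88 with WT 1 and WT 2, and at -0.87 and -0.88 with WT 3 and WT 4. Deviations from the group means correlated at 0.87, -0.79, 0.69 and 0.75 for numbers 1 to 4, and with the replicate block 0 of the 7 genes and 0 list genes passed in either direction, as did 0 of all genes, with 1479 at an unadjusted p under 0.05. The depth limits statements on Tyro3, with 5 to 47 counts.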

Other observations

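Further genes of the lists passed with the library set as a term and are named here after their values were seen. In the list of TAM signalling and response to uptake, with 0 of 19 genes higher and 8 lower, the sterol sensor Nr1h3 (log2 fold change -0.50, adjusted p = 0.0482 by edgeR) and its target Abcg1, a sterol exporter (-0.66, adjusted p = 0.0177 by edgeR), were among the lower ones in Tgfbr2_KO, and so were the mitochondrial carrier Ucp2 (-0.49, adjusted p = 0.0212 by edgeR) and Hif1a (-0.42, adjusted p = 0.0169 by edgeR). In the list of digestion and LC3-associated phagocytosis, the lysosomal protease Ctsd was lower as well (-0.64, adjusted p = 0.0169 by edgeR). In the list of LDL receptor family genes and LRP1 partners, the urokinase receptor Plaur (-0.65, adjusted p = 0.021 by edgeR) and the receptor Lrp8 (-1.28, adjusted p = 0.016 by edgeR) were lower too. These 7 genes were picked from those that passed and say nothing of their lists beyond the counts. None of these 7 genes passed with WT 3 and WT 4 summed (edgeR adjusted p of 0.0588 to 0.123).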
